A study of Mus musculus with 2 samples.

Results

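The 10 genes described here encode the hypoxia-inducible factors (HIFs) and the proteins that tie them to oxygen. They were taken by name from the 32531 genes listed in the count files, and all 10 had a row. They are the α subunit genes Hif1a, Epas1 and Hif3a, the β subunit genes Arnt and Arnt2, the prolyl hydroxylase genes Egln1, Egln2 and Egln3, the ubiquitin ligase gene Vhl and the asparaginyl hydroxylase gene Hif1an. RNA bound to tagged ribosomes was purified from the cerebral cortex of untreated adult mice of the Gdnf-TRAP line ES2243 and sequenced as 2 libraries, IP1 and IP2. In this line a ribosomal protein fused to a green fluorescent protein (EGFP/Rpl10a) is expressed from Gdnf regulatory sequences, so the captured RNA depends on which cells use those sequences. The series is directed at pericytes, the mural cells of capillaries. Both libraries belong to 1 group of 1 genotype and 1 treatment, and no unpurified cortex was analysed here. Nothing in the sources states that they are separate mice or pools, and the spread between them may be technical.

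An active HIF is a pair of an oxygen-regulated α subunit and a stable β subunit. With oxygen present, EGLN enzymes hydroxylate prolines of the α subunit, VHL binds the hydroxylated form, and the ubiquitin ligase built around VHL marks it for destruction. The enzyme encoded by Hif1an hydroxylates an asparagine and so blocks recruitment of coactivators. This control acts on protein, which RNA counts do not measure. Epas1, which encodes HIF-2α, is known from vascular endothelium and from pericytes.

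IP1 held 65200231 and IP2 72732502 reads in genes. Values are given as CPM, the gene's counts scaled to the usual library total of that unit. They are not scaled to gene length. Exon lengths for the build of the files were not used here. A CPM value therefore compares 1 gene between libraries and does not order genes by level. A difference between the libraries is written as a log2 ratio (positive where IP2 is higher) with its exact 95% interval that covers counting error only. With 2 libraries of 1 group there is no test between conditions, so each ratio is set beside those of the 9656 genes averaging 10 CPM or more. Their median log2 ratio was -0.03, and 90% of them lay between -0.56 and 0.66.

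The upstream sequences of members that the results turn on are shown first, so that the bases HIFs can recognise are visible beside the counts. HIF pairs bind response elements built on the letters ACGTG or GCGTG. The RefSeq table (GRCm38.p6) held windows of 250 bases before to 50 after an annotated start for 9 of the 10 genes, 10 windows in all. Capitals mark both cores wherever they occur on either strand, so that a core on the other strand is printed as CACGT or as CACGC. In 1 place of the Hif1a window the marks of both strands overlap. Hif3a is shown as the α subunit gene that differed most between the libraries, Hif1a as the α subunit gene beside it, and Egln1 and Egln3 as the prolyl hydroxylase genes known to be induced by HIF. The windows are chr7:17062378-17062677 (minus strand) for Hif3a, chr12:73907617-73907916 (plus strand) for Hif1a, chr8:124949205-124949504 (minus strand) for Egln1 and chr12:54203825-54204124 (minus strand) for Egln3.
Hif3a: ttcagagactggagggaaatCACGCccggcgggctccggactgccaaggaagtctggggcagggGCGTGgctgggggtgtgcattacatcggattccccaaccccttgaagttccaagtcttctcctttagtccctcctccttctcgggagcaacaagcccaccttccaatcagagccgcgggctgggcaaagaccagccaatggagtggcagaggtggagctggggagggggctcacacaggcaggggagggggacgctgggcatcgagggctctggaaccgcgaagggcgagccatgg
Hif1a: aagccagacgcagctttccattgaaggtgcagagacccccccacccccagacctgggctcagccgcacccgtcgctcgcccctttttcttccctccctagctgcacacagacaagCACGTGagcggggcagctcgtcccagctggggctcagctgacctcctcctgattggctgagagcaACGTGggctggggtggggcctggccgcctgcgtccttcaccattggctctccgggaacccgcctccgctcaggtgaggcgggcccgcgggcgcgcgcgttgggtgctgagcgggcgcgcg
Egln1: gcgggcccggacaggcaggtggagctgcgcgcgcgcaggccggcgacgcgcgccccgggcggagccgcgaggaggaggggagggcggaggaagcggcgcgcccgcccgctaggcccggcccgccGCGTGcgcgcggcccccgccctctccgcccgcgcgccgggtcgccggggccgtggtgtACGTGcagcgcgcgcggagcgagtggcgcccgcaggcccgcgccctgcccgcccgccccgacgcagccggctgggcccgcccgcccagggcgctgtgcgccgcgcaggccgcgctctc
Egln3: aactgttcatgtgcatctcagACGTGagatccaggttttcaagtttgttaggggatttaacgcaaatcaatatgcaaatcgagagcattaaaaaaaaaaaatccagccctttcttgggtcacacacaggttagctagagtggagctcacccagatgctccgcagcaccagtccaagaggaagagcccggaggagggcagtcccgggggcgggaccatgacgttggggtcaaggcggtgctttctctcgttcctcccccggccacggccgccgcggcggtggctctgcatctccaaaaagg

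In the Hif3a window the marked letters began 230 and 186 bases before the start. The Egln1 window held GCGTG 126 and ACGTG 68 bases before the start, and the Egln3 window held 1 ACGTG, 229 bases before it. The Hif1a window, which belongs to a start inside the gene's annotated span, held a core readable on both strands 135 bases and ACGTG 70 bases upstream. At least 1 such core was found in a window of 6 of the 9 genes (also Arnt and Egln2) and in none of those of Arnt2, Vhl and Hif1an. The Arnt2 window (chr7:84409989-84410288, minus strand), like that of Hif1a, belongs to a start inside the gene's annotated span. Counted by window, 7 of 10 held a core. Of all 32851 windows of this table, 43.8% held a core, 19.6% ACGTG or its complement and 32.4% GCGTG or its complement. A match describes letters and shows no binding.

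Of the 10 genes, 9 reached 10 CPM in both libraries, against 28.3% of all genes listed. The exception was Hif3a. The range between the 2 libraries was narrow for the other 9, whose largest difference was that of Arnt (1.22-fold higher in IP1), while Hif3a was 3.29-fold higher in IP2. Thus 1 of 10 members was past 1.5-fold towards IP2, where 6.57% of genes averaging 10 CPM or more were, and 0 of 10 towards IP1, where 4.42% were. With TMM scaling the background was 8.01% towards IP2 and 3.40% towards IP1, and the member counts were again 1 and 0. A count of 1 in 10 is near the background. The median log2 ratio of the 10 was -0.0013, with 5 members above and 5 below 0.

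**Figure D1:**
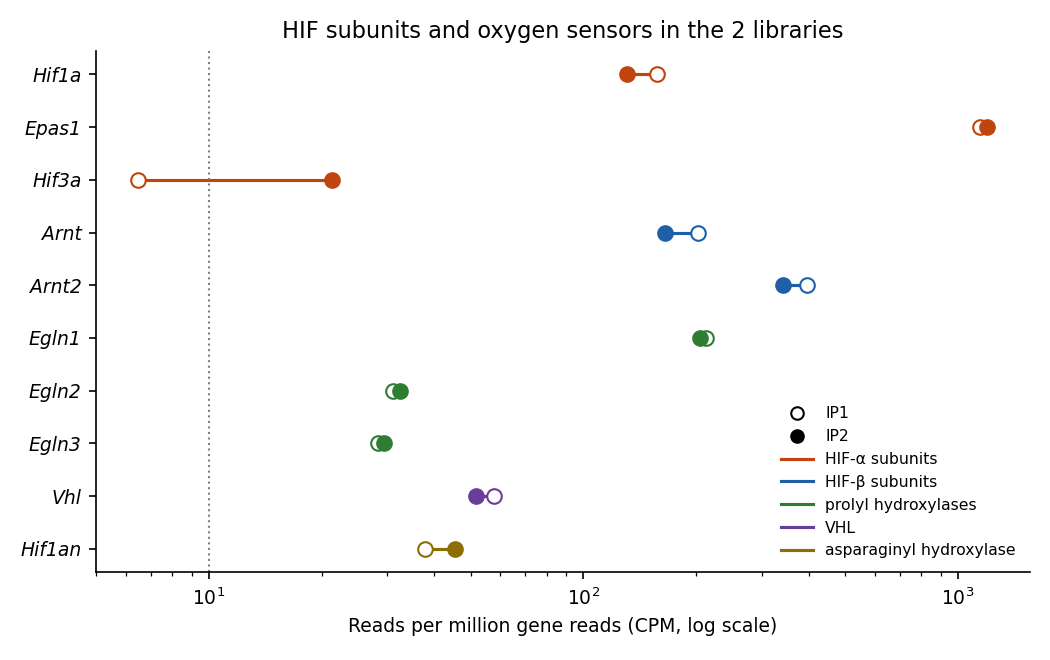
Scaled counts (CPM, log axis) of the 10 genes in IP1 (open circles) and IP2 (filled circles), coloured by role, with a dotted line at 10 CPM. The 2 circles lie close together for 9 genes, and those of Hif3a lie apart, at 6.49 and 21.4 CPM on either side of the line.

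Among the α subunit genes, Epas1 (chromosome 17, 86753864 to 86833410, GRCm38) had 74982 reads in IP1 and 87229 in IP2, which is 1150 and 1199 CPM (1175 ± 34.9, SD, n = 2). Its log2 ratio was 0.06 (0.05 to 0.07), a difference beyond counting error but small beside the spread of all genes. Among 144 genes whose mean lay within 2-fold of that of Epas1, 75% had a larger ratio in either direction. Epas1 was thus among the steadier genes of its level.

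Hif1a, which encodes the α subunit found in most tissues (chromosome 12, 73901324 to 73947554), had 10264 reads in IP1 and 9511 in IP2, or 157 and 131 CPM (144 ± 18.8, SD, n = 2). It was lower in IP2, with a log2 ratio of -0.27 (-0.31 to -0.23), the opposite side from Epas1. Reads of Epas1 per read of Hif1a went from 7.31 in IP1 to 9.17 in IP2. Longer transcripts gather more reads, so this quotient describes the libraries and not the relative abundance of the pair.

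Hif3a (chromosome 7, 17030993 to 17062427), whose splice forms include inhibitors of the other α subunits, had 423 reads in IP1 and 1555 in IP2. These are 6.49 and 21.4 CPM (13.9 ± 10.5, SD, n = 2). IP2 was the high library, with a log2 ratio of 1.72 (1.56 to 1.88), or 3.29-fold (2.96 to 3.68). Counting error is small beside this difference. In order of ratio towards IP2, Hif3a was number 4 of the 9656 genes. Only 5 of 4101 genes with a mean within 2-fold of its own had a larger ratio in that direction, some with a mean under 10 CPM. Hif3a passed the mean of 10 CPM only through IP2. Which splice forms the reads came from cannot be read from counts per gene.

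**Figure D2:**
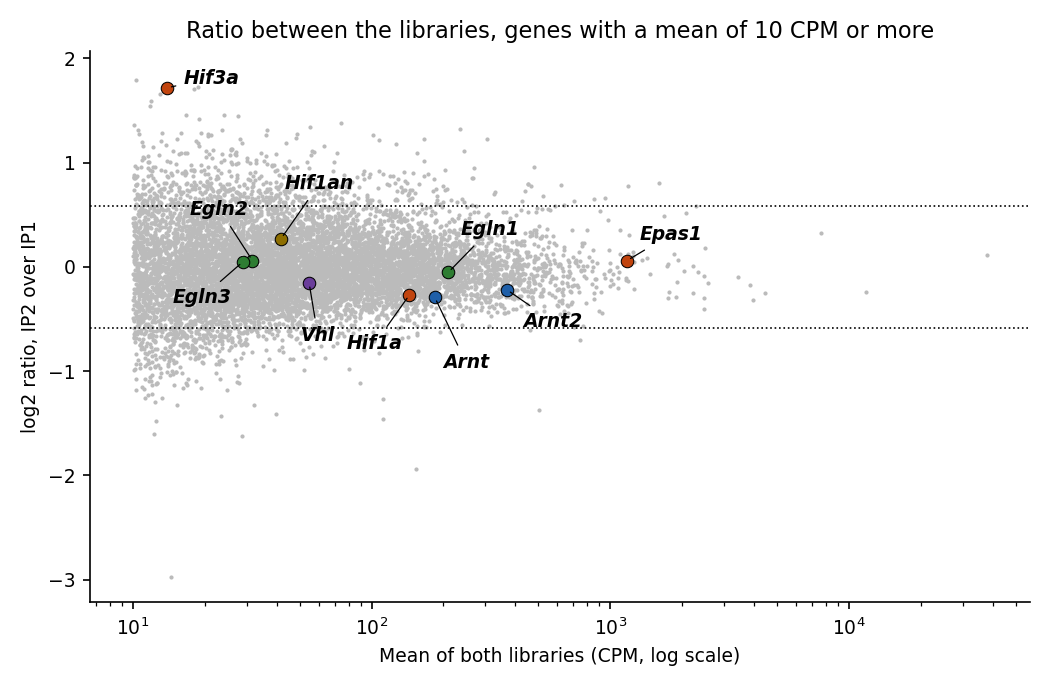
The log2 ratio of IP2 over IP1 (vertical axis) against the mean CPM of both libraries (log axis) for the 9656 genes averaging 10 CPM or more (grey), with the 10 members in colour by role and dotted lines at 1.5-fold. Hif3a lies at the upper edge of the cloud at 1.72, and the other 9 lie inside the lines, between -0.29 and 0.27.

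Of all reads of the 3 α subunit genes, Epas1 took 87.5% (87.3 to 87.7, exact 95% interval) in IP1. In IP2 it took 88.7% (88.5 to 88.9). The share of Hif1a went from 11.98% (11.8 to 12.2) to 9.68% (9.49 to 9.86). That of Hif3a was 0.494% (0.448 to 0.543) in IP1 and 1.58% (1.505 to 1.66) in IP2. The makeup of the family therefore differed between the libraries beyond counting error. These are shares of reads, unscaled for length, and do not depend on how the libraries are scaled.

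Both β subunit genes were slightly lower in IP2. Arnt, which encodes the general partner of HIF-α and of the aryl hydrocarbon receptor (chromosome 3, 95434367 to 95497240), had 13183 and 12027 reads in IP1 and IP2, or 202 and 165 CPM (184 ± 26.0, SD, n = 2). Arnt2, the relative known mainly from neurons (chromosome 7, 84246274 to 84411741), had 25875 and 24808 reads, or 397 and 341 CPM (369 ± 39.4, SD, n = 2). The log2 ratios were -0.29 (-0.33 to -0.25) for Arnt and -0.22 (-0.24 to -0.19) for Arnt2. Both lay well within the central 90% of all genes. Arnt2 took 66.2% of the pair's reads in IP1 (65.8 to 66.7) and 67.3% in IP2 (66.9 to 67.8), so the pair moved nearly in step.

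The reads of Arnt2 cannot be placed in mural cells. All 8 neuron markers listed reached 10 CPM in both libraries, with summed levels of 15196 and 13129 CPM. The synaptic genes Snap25 (12770 and 10795 CPM) and Syt1 (699 and 723 CPM) were among them. The part of neuronal RNA in the counts of any member was not tested, and in bulk samples fewer cells of a type and less RNA per cell cannot be told apart.

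The prolyl hydroxylase genes were steady. Egln1, the main oxygen sensor for HIF-1α (chromosome 8, 124908587 to 124949254), had 13902 reads in IP1 and 14951 in IP2, or 213 and 206 CPM (209 ± 5.42, SD, n = 2). Egln2 (chromosome 7, 27158658 to 27166802), a family member not induced by low oxygen, had 2020 and 2351 reads, or 31.0 and 32.3 CPM (31.7 ± 0.95, SD, n = 2). Egln3 (chromosome 12, 54178981 to 54203874), strongly induced by HIF in many cells, had 1851 and 2138 reads, or 28.4 and 29.4 CPM (28.9 ± 0.71, SD, n = 2).

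The log2 ratios were -0.05 (-0.09 to -0.02) for Egln1, 0.06 (-0.03 to 0.15) for Egln2 and 0.05 (-0.04 to 0.14) for Egln3. Scaled to library totals, the intervals of Egln2 and Egln3 include 0, so on that scaling these 2 genes did not differ beyond counting error. With TMM scaling their log2 ratios were 0.11 and 0.10, and intervals were computed for library totals only. Of genes with a mean within 2-fold of each, 82.4% had a larger ratio than Egln1, 86.0% than Egln2 and 88.8% than Egln3. Of the family's reads, Egln1 took 78.2% in IP1 (77.6 to 78.8) and 76.9% in IP2 (76.3 to 77.5). Egln2 took 11.4% (10.9 to 11.8) and 12.1% (11.6 to 12.6), and Egln3 10.4% (9.97 to 10.9) and 10.998% (10.6 to 11.4).

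**Figure D3:**
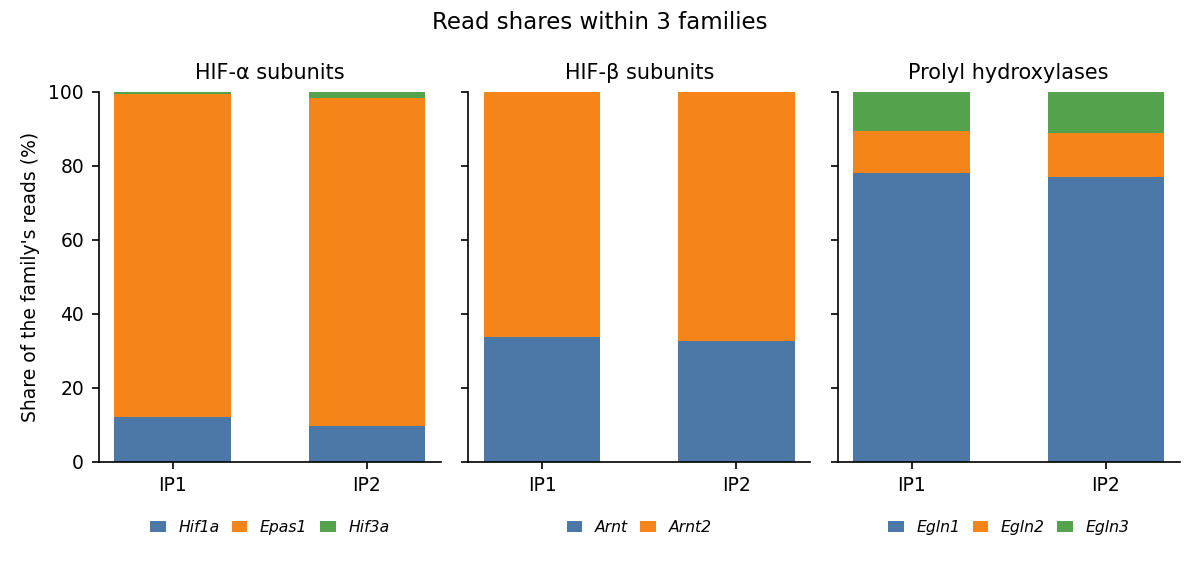
Share of reads (percent, stacked bars from 0 to 100) of each gene within the α subunits, the β subunits and the prolyl hydroxylases, in IP1 and IP2, not scaled for gene length. Epas1, Arnt2 and Egln1 hold the most reads of their families in both libraries, and the share of Hif3a is 0.494% in IP1 and 1.58% in IP2.

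Vhl, the substrate-binding subunit of the ligase (chromosome 6, 113623994 to 113631634), had 3756 reads in IP1 and 3767 in IP2, or 57.6 and 51.8 CPM (54.7 ± 4.11, SD, n = 2). Its log2 ratio was -0.15 (-0.22 to -0.09). Hif1an (chromosome 19, 44562854 to 44576274) had 2464 and 3313 reads, or 37.8 and 45.6 CPM (41.7 ± 5.49, SD, n = 2), and was higher in IP2 with a log2 ratio of 0.27 (0.19 to 0.35). Reads of Hif1an per read of Vhl were 0.66 in IP1 and 0.88 in IP2. After Hif3a, Hif1an had the largest ratio towards IP2 among the 10 genes, and 42.5% of genes within 2-fold of its mean had a larger ratio in either direction.

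The rest of the pathway was read from 9 lists of its other parts and of known target genes. Without the members these lists hold 141 different genes, and 97 reached 10 CPM in both libraries. Of 100 averaging 10 CPM or more, 11 were past 1.5-fold towards IP2 and 0 towards IP1, against 6.57% and 4.42% of all genes. Their median log2 ratio was -0.08. The plot of ratios by list shows the lists side by side.

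All 12 genes of the VHL ligase and its modifiers reached 10 CPM in both libraries. None was past 1.5-fold and 11 of 12 were on the IP1 side. The median of all genes (-0.03, or 0.03 with TMM scaling) lay close to 0 beside their spread. All genes were thus split far more evenly between the sides than this list. The median log2 ratio was -0.24 (-0.19 with TMM scaling), beside -0.15 for Vhl itself. The highest by CPM were the deubiquitinase gene Otud7b (205 and 204 CPM in IP1 and IP2) and the ubiquitin-conjugating enzyme genes Ube2d3 (151 and 130 CPM) and Ube2d1 (158 and 111 CPM). Of 20 coactivators and modifiers of HIF, 15 reached 10 CPM in both libraries, with a median log2 ratio of -0.12. The chaperone gene Hsp90ab1 (1384 and 1468 CPM), the coactivator gene Ncoa1 (413 and 383 CPM) and the acetyltransferase gene Crebbp (329 and 390 CPM) led. Os9 was the 1 gene of this list past 1.5-fold, at 32.1 and 50.5 CPM.

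Among 15 relatives with the bHLH-PAS or PAS fold of the HIF subunits, 8 reached 10 CPM in both libraries (median log2 ratio 0.13). The circadian genes Clock (188 and 218 CPM), Per1 (100.1 and 177 CPM) and the coactivator gene Ncoa3 (110 and 119 CPM) were highest. Per1 and Per2 (73.5 and 118 CPM) were past 1.5-fold towards IP2, and Sim2 had no read in either library. Of 28 other oxygenases that use 2-oxoglutarate or act as oxygen sensors, Riox1 had no row and 21 reached 10 CPM in both libraries. Alkbh5 (305 and 356 CPM), which demethylates RNA, and the histone demethylase genes Kdm2a (257 and 269 CPM) and Kdm5a (194 and 162 CPM) led. The median of this list was 0.07, with 2 genes past 1.5-fold towards IP2 and 0 towards IP1.

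Both encode enzymes that hydroxylate collagen. P4ha1, which encodes a catalytic subunit of collagen prolyl 4-hydroxylase and is a HIF target, had 567 reads in IP1 and 2092 in IP2, or 8.70 and 28.8 CPM. Its log2 ratio of 1.72 placed it number 3 of the 9656 genes. Plod1, a lysyl hydroxylase gene, stood at 15.8 and 29.0 CPM. P4ha1 was low in IP1 and passed the mean of 10 CPM only through IP2.

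**Figure D4:**
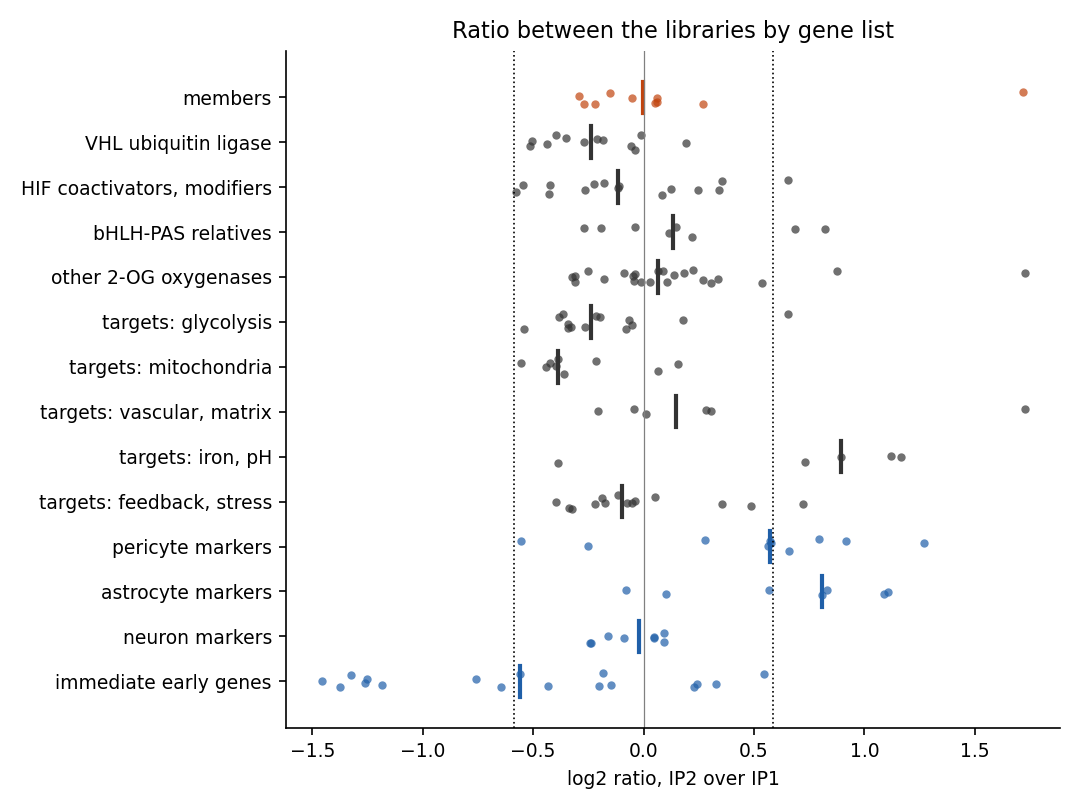
The log2 ratio of IP2 over IP1 (horizontal axis) of each gene averaging 10 CPM or more, by list, with the median as a bar and dotted lines at 1.5-fold. The smooth muscle, endothelial, oligodendrocyte, oligodendrocyte precursor, microglial and perivascular fibroblast lists are not drawn. The members (orange) centre on -0.0013 with Hif3a alone at 1.72. Iron and pH targets have a median of 0.89 and astrocyte markers of 0.81, and immediate early genes have one of -0.56.

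Known HIF targets did not lie on 1 side of 0, but those past 1.5-fold all lay towards IP2. Of 46 targets averaging 10 CPM or more, members left out, 7 (15.2%) were past 1.5-fold towards IP2 and 0 towards IP1. The shares of all genes were 6.57% and 4.42%. Of these 7 targets, 4 came from the list of iron and pH targets, in which only 5 genes averaged 10 CPM or more. The others were Slc2a1, P4ha1 and Ero1l, so the share of 15.2% rests mostly on that 1 short list. The median log2 ratio of the 46 was -0.18. Glycolytic targets were mostly on the IP1 side, with 12 of 14 genes below 0 and a median log2 ratio of -0.24. The median of all genes was -0.03, close to 0, so all genes were split far more evenly between the sides than these 14. Aldoa (700 and 551 CPM), Aldoc (433 and 410 CPM) and Ldha (319 and 275 CPM) were the highest, and the glucose transporter gene Slc2a1 (15.3 and 24.1 CPM) was the 1 gene past 1.5-fold, towards IP2. Gapdh was at 1.86 and 3.88 CPM and Eno1 at 0.23 and 0.22 CPM. Reads that match several places went to no gene in these files, and how many that left out for each gene is not known. All 9 mitochondrial targets reached 10 CPM in both libraries, with a median of -0.39 and none past 1.5-fold. They included Higd1b (241 and 164 CPM), Bnip3l (229 and 197 CPM), a mitophagy receptor gene, and Mxi1 (170 and 190 CPM). Higd1b is also in the list of pericyte markers.

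Of 20 vascular and matrix targets, only 4 reached 10 CPM in both libraries. The chemokine gene Cxcl12 (105 and 102 CPM), the angiogenic factor gene Vegfa (36.6 and 36.8 CPM) and Apln (22.3 and 19.3 CPM) led. The Vegfa log2 interval of -0.07 to 0.09 includes 0. P4ha1 was the 1 gene of this list past 1.5-fold. Of 16 feedback and stress targets, which include Egln1 and Egln3, 14 reached 10 CPM, with a median of -0.10. Rora (351 and 324 CPM), Zfp36l1 (300 and 238 CPM) and Bhlhe40 (259 and 228 CPM) led, and Ero1l, an oxidase gene of the endoplasmic reticulum, was past 1.5-fold at 20.4 and 33.6 CPM.

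Targets in iron handling, red cell formation and pH control, 9 in the list, were mostly on the IP2 side. Of 5 averaging 10 CPM or more, 4 were past 1.5-fold towards IP2 and the median log2 ratio was 0.89. Transferrin (Trf) was at 38.9 and 87.3 CPM, ceruloplasmin (Cp) at 64.6 and 120 CPM, the metal transporter gene Slc11a2 at 16.2 and 35.2 CPM and the transferrin receptor gene Tfrc at 16.2 and 26.9 CPM. Hmox1, the heme oxygenase gene, was on the other side at 21.3 and 16.3 CPM. Epo, which encodes erythropoietin, had 0 reads in IP1, which allows up to 0.046 CPM, and 27 in IP2 (0.37 CPM). Car9, a widely used hypoxia marker, had 4 and 5 reads.

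Markers of cell types were read beside these values. All 10 pericyte markers reached 10 CPM in both libraries, among them Rgs5 (4841 and 4061 CPM) and Pdgfrb (114 and 139 CPM), with 4 past 1.5-fold towards IP2 (7 with TMM scaling) and Notch3 past 2-fold (59.7 and 144 CPM). All 6 smooth muscle markers also reached 10 CPM, with none past 1.5-fold, including Acta2 (373 and 306 CPM) and Myh11 (206 and 207 CPM). Endothelial cells, which also use Epas1, left few reads. Of 10 endothelial markers 1 reached 10 CPM in both libraries, namely Emcn (42.1 and 33.3 CPM), and their summed level was 66.0 and 62.9 CPM. The junction genes Cldn5 (5 and 0 reads) and Pecam1 (12 and 36 reads) were at or near 0. The part of endothelial RNA in the reads of Epas1 was not tested.

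Astrocyte markers lay mostly on the IP2 side, with a median log2 ratio of 0.81. Other lists also had medians on that side. They were 0.57 for pericyte, 0.48 for perivascular fibroblast, 0.34 for oligodendrocyte precursor and 0.32 for oligodendrocyte markers. The summed level of the pericyte markers was nearly equal, however (6466 and 6421 CPM), with Rgs5 holding most of it. Of these markers 8 had ratios above 0, while Rgs5 (-0.25) and Higd1b (-0.55) went towards IP1. Smooth muscle, endothelial and neuron markers had medians of 0.01, -0.03 and -0.02. Of 8 astrocyte markers, 7 reached 10 CPM in both libraries and 4 were past 1.5-fold towards IP2. Their levels summed to 1872 CPM in IP1 against 2941 CPM in IP2, of which Slc1a2 alone held 1158 and 2028 CPM. Aldoc was lower in IP2 (433 and 410 CPM). Aqp4, a water channel gene, was at 36.5 and 78.6 CPM and the glutamate transporter gene Slc1a3 at 99.4 and 212 CPM, while Gfap was at 26.2 and 28.1 CPM. All 6 oligodendrocyte precursor markers reached 10 CPM, and 3 were past 1.5-fold towards IP2, namely Pdgfra (326 and 632 CPM), Cspg5 (156 and 240 CPM) and Gpr17 (183 and 427 CPM). Of 7 oligodendrocyte markers, 2 were past it, with Mbp at 460 and 397 CPM. All 6 perivascular fibroblast markers reached 10 CPM and 2 were past it, with Dcn at 206 and 236 CPM and Lum at 49.3 and 64.6 CPM. Of 7 microglial markers none reached 10 CPM in both libraries, and Cx3cr1 was at 2.64 CPM in each and P2ry12 at 6.66 and 5.72 CPM. The part of these cells in the ratio of Hif3a was not tested.

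Immediate early genes, which respond within minutes to activity and handling, stood on the other side. Of 24, 17 averaged 10 CPM or more, and 8 of those were past 1.5-fold towards IP1 and 0 towards IP2 (1 with TMM scaling, DESeq2 size factors or a total without Rn45s), with a median log2 ratio of -0.56. Egr1 was at 728 and 281 CPM, Fos at 18.6 and 7.81 CPM, Egr2 at 34.3 and 15.1 CPM, Nr4a1 at 163 and 59.4 CPM, Dusp1 at 158 and 65.8 CPM and Btg2 at 45.9 and 18.4 CPM, while Egr3 (205 and 243 CPM) and Klf6 (202 and 178 CPM) differed less. Across the same libraries, HIF targets averaging 10 CPM or more had log2 ratios from -0.55 (Higd1b) to 1.72 (P4ha1). Within that range Egln1, Egln3 and Vegfa were at -0.05, 0.05 and 0.01. Whether handling plays a part in any member's count was not tested. The driver gene Gdnf was at 10.2 and 7.84 CPM and Rpl10a, the gene of the tagged protein, at 4.37 and 3.74 CPM. Reads that matched several places are not in these values, and how many were left out is not known.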

How the data were processed

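Ribosome-bound cortex RNA was sequenced in 2 libraries. The deposited values are raw read counts per gene symbol. They were made with STAR 2.0.0e, the mm10 genome and HTSeq, per the submitters' processing notes. Which annotation and strand setting were used is not given in the sources used here. Summary lines and a row named unknown (1 and 0 reads) were left out. Reads in genes were 58.1% of those listed in IP1 and 57.7% in IP2, and 31.2% and 31.5% matched several places and went to no gene.

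Counts were divided by the library total to give CPM. Ratios used a prior of 0.5 counts, and intervals are exact 95% binomial ones for counting error only, since reads are not independent molecules. A count of 0 allows up to 3 reads. A ratio past 1.5-fold was called among genes averaging 10 CPM or more. Over 17306 genes the chi-square between the libraries was 88.9 for each degree of freedom, far from copies of 1 library. The plan foresaw levels scaled by exon length, and shares of reads are given in their place. TMM factors (edgeR 4.0.16), DESeq2 1.42.0 size factors, other thresholds and a total without the ribosomal RNA precursor Rn45s were alternatives. The ratio script was tested on simulated data.

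The members and lists were chosen with earlier results of these data known. The genes named are the members, the 3 highest by CPM of each pathway list, the first 2 of each marker list, and listed genes past 2-fold. A gene that this rule names is not reported here. The other genes named (Os9, Per2, Plod1, Slc2a1, Tfrc, Ero1l, Hmox1, Epo, Car9, Gapdh, Eno1, Sim2, Emcn, Gfap and Slc1a2) were chosen after their values were seen. No gene is named for a likeness to a member, since 2 libraries give no measure of it. RefSeq lists long noncoding or small RNA genes within the spans of Hif1a, Arnt2 and Egln1, none with a row in the files, and no overlapping gene for the other 7. Computation used R 4.3.3, Python 3.11.15 and scipy 1.17.1.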

Additional observations from a re-analysis of the deposited data

How the results depend on the processing

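The count of members at 10 CPM in both libraries was 9, and that of members past 1.5-fold was 1. Each stayed within 1.5 times its value under TMM scaling, DESeq2 size factors, a total without Rn45s and other thresholds. Detection ranged from 9 to 10 members when 1 library was left out, Hif3a being under 10 CPM in IP1 and over it in IP2. The Hif3a log2 ratio was 1.77 with TMM or DESeq2 scaling and 1.72 without Rn45s. TMM and DESeq2 scaling moved every member's ratio up by 0.05 and 0.06, which turned that of Egln1, never past 1.5-fold, from -0.05 to 0.0004 and 0.0026. The other 9 kept their side. Of 30 member levels recomputed with another scaling, 4 moved by more than the SD (Epas1 and the 3 Egln genes, all without Rn45s). Leaving out a library puts the level of Hif3a, 13.9 CPM on the mean of both, at 6.49 CPM without IP2 and 21.4 CPM without IP1. The pathway genes past 1.5-fold were 12 and 0 under both scalings, and the share of all calls on the IP2 side went from 59.8% to 70.2% (TMM) and 70.8% (DESeq2). With no filter on the mean, 16 of 38 list counts moved by over 1.5 times. Scaling by gene length was not run, so the read shares have no such alternative. No paired analysis was possible because both libraries belong to 1 group. Scaled to library totals, the counting intervals of the Egln2 and Egln3 ratios include 0. No intervals were computed under TMM or DESeq2 scaling, where the ratios were higher (0.11 and 0.10 with TMM), so that reading holds for totals only.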
